A study of Rattus norvegicus with 6 samples.

Results

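The transcripts of 6 genes that act in transcription, RNA processing, translation and nuclear transport were followed in BMMSCs of the rat, which are mesenchymal stromal cells of the bone marrow that grow attached to the dish and can become osteoblasts. The genes are Med16, Pop7, Magoh, Mex3c, Eif4b and Cse1l. Each was taken from its catalogue probe, a probe of the array maker's general collection that is printed in 10 spots on every array, whose accession is a rat RefSeq transcript of that gene. They are 6 of the 30 catalogue probes that matched 1 gene, of 50 catalogue probes and 38804 non-control probes in all. Cells from the femurs of Wistar rats, which the labels call normal and use as the control, were compared with cells from GK rats, the strain that stands for type 2 diabetes in the design, with 3 samples each. All 6 samples had spent 7 days in osteogenic induction medium, so induction itself was not compared. The labels give no age, sex or number of animals and do not say whether samples of a group are separate animals, and the p-values therefore reflect the scatter of these samples alone, which may be technical. What belongs to diabetes and what belongs to the rest of the strains' genetic background cannot be told apart.

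These genes belong to successive steps of gene expression. Med16 is a subunit of the tail module of Mediator, the complex that connects DNA-bound transcription factors with RNA polymerase II. Pop7, also called Rpp20, is a protein subunit of RNase P and RNase MRP, which trim the leader of transfer RNA precursors and process ribosomal RNA precursors. Magoh pairs with Rbm8a in the core of the exon junction complex, which is left on messenger RNA by splicing and marks it for transport and for nonsense-mediated decay. Mex3c is an RNA-binding protein with a ubiquitin ligase domain. Eif4b is a translation initiation factor that stimulates the helicase which unwinds the leader of messenger RNA. Cse1l is the export receptor that returns importin alpha from the nucleus to the cytoplasm, so that it can carry further cargo in. Such genes are active in nearly all cell types, and osteoblasts, which secrete large amounts of matrix protein, also depend on them.

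No spot was saturated on any array, and between 65.1% and 77.3% of the probes were well above background. The number of arrays limits the precision. Of 13 stromal and osteoblast markers, 2 had a named probe, Enpp1 and Cdh2, and each passed the background flag on all 6 arrays. The markers of other cell types had named probes only for the neural genes Map2, well above background on 2 of 6 arrays, and Dlg4, on all 6. In these bulk samples, fewer cells of a type and less RNA per cell cannot be told apart. GK replicate 3 stood apart from its group. Across the tested probes it correlated with GK replicates 1 and 2 at Pearson's r 0.948 and 0.962, against 0.982 between those 2 arrays, and with Wistar replicate 3 at 0.971. The 3 Wistar arrays and GK replicate 1 share a scan time in the file headers, as do GK replicates 2 and 3, and each set is called a slide here, which is an inference from the scan times.

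RefSeq promoter sequences (build GRCr8) were at hand for 3 of the 6 genes, Magoh, Med16 and Cse1l. They are shown because the probes report only on the transcript and these are the stretches in front of the genes discussed. Each line gives the 150 bases before the outermost annotated start of the gene on the plus strand, with motif matches in capitals. The positions are chr5:127867894-127868043 for Magoh, chr7:10449123-10449272 for Med16 and chr3:176060033-176060182 for Cse1l.
Magoh: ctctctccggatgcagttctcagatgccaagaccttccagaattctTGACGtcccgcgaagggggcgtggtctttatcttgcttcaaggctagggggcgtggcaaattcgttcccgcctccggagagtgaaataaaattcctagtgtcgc
Med16: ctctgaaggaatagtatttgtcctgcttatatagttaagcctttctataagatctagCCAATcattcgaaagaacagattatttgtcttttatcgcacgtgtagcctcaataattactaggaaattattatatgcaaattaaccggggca
Cse1l: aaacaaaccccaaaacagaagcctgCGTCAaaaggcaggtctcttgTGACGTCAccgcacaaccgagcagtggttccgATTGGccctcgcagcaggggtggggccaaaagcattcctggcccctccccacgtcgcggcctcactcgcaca

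The motifs searched on both strands were the TATA box TATAAA, the CCAAT box CCAAT, the GC box GGGCGG, the cAMP response element TGACGTCA and its shorter form TGACG, which overlaps the full element. Cse1l held the full element 1 time, which 1.30% of 22044 promoter windows of the same length and placement also held. The shorter form matched 3 times in Cse1l, of which 2 lie in the full element, and 1 time in Magoh, and it occurred in 12.8% of the windows. The CCAAT box was found in Med16 and in Cse1l, there on the other strand, and in 24.1% of the windows. The TATA box and the GC box matched in none of these 3 windows, against 8.88% and 23.9% of all. The windows differed in base composition, with 34% G or C in Med16, 54% in Magoh and 60.7% in Cse1l. A match is a description of the letters, and no binding was measured.

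All 6 transcripts were well above background on all 6 arrays, and none differed between GK and Wistar cells beyond the spread between arrays. Levels are given as log2 of the processed signal minus the 75th percentile of the array, so that a level of 0 equals that percentile and each unit is a doubling of signal. Levels of different probes are not set against each other. The mean was higher in GK cells for each of the 6, by between 1.07-fold (Magoh) and 1.30-fold (Eif4b). Limma passed 0 of the 6 at an adjusted p under 0.05, and 0 at an unadjusted p under 0.05. Of the 27920 probes tested, 0.358% passed at the adjusted threshold (100 probes) and 12.6% at the unadjusted one.

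**Figure D1:**
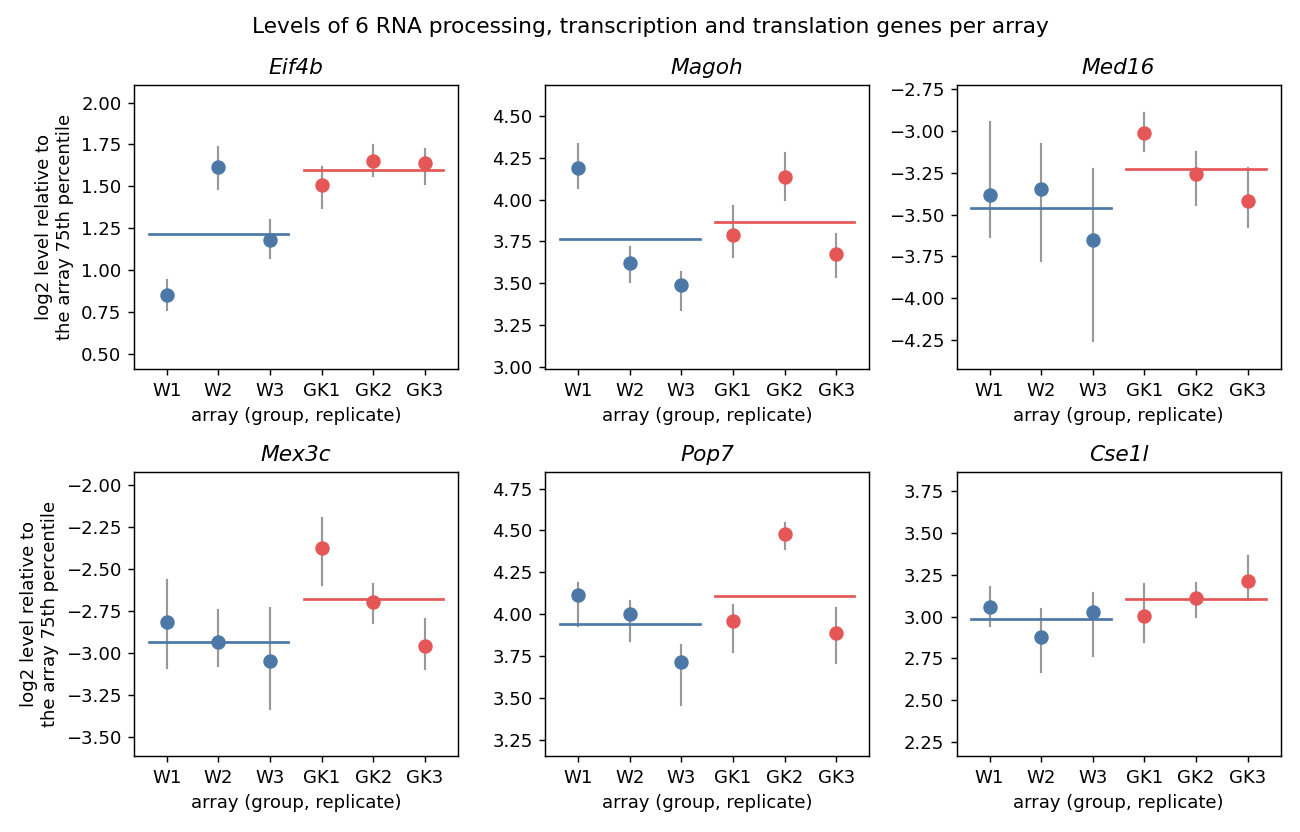
Log2 level of each gene relative to the 75th percentile of the array, for Wistar replicates 1 to 3 (W1 to W3, blue) and GK replicates 1 to 3 (GK1 to GK3, red). Points are the mean of the spots, grey bars run from the lowest to the highest spot, coloured lines are group means, and each panel spans the same height; the groups overlap in all 6 panels.

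Med16, the Mediator subunit, gave a dim signal on these arrays. Its levels were -3.38, -3.35 and -3.65 in Wistar replicates 1 to 3 and -3.01, -3.26 and -3.42 in GK replicates 1 to 3. GK replicates 1 and 2 lay above every Wistar array, and GK replicate 3 lay below Wistar replicates 1 and 2. The GK mean was -3.23 ± 0.20 and the Wistar mean -3.46 ± 0.17 (SD, n = 3 each). The difference of 0.23 on the log2 scale had a 95% interval of -0.25 to 0.71 and a limma adjusted p of 0.701. All 59 spots used were well above background, yet the processed signal was only 13.8 to 22.0 intensity units. The spots of this probe scattered most on Wistar replicate 3, with an SD of 0.33 and a lowest spot at -4.26. With normexp, another background correction, run here with an offset of 50 intensity units added to every signal, the difference was 0.03. That offset exceeds the processed signal of this probe and by itself shrinks log2 differences, so this value is not a like-for-like check. On the reported scale the difference was 0.12 without GK replicate 1 and 0.13 without Wistar replicate 3.

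Pop7, the subunit of RNase P and RNase MRP, gave a bright signal. Wistar replicates 1 to 3 read 4.11, 4.00 and 3.71, and GK replicates 1 to 3 read 3.96, 4.48 and 3.89. GK replicate 2 was the highest array and stood alone above the Wistar range. The other two GK arrays fell inside that range. The GK mean was 4.11 ± 0.32 and the Wistar mean 3.94 ± 0.21 (SD, n = 3 each). The log2 difference of 0.17 had a 95% interval of -0.40 to 0.73 and a limma adjusted p of 0.828. Its direction rests on GK replicate 2, since without that array the difference was -0.019, and it was 0.05 without Wistar replicate 3.

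Magoh, the exon junction component, spread more between arrays than between groups. Its levels were 4.19, 3.62 and 3.49 in Wistar replicates 1 to 3 and 3.79, 4.14 and 3.67 in GK replicates 1 to 3. The highest array and the lowest array were both Wistar, so the GK values lay wholly within the Wistar range. The GK mean was 3.87 ± 0.24 and the Wistar mean 3.77 ± 0.37 (SD, n = 3 each). The log2 difference of 0.10 had a 95% interval of -0.51 to 0.71 and a limma adjusted p of 0.911. The difference turned to -0.038 without Wistar replicate 3 and to -0.036 without GK replicate 2. It was 0.31 without Wistar replicate 1, 0.04 with normexp and 0.05 with quantile normalisation.

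Mex3c, the RNA-binding ubiquitin ligase, also gave a dim signal, at 20.9 to 33.1 intensity units. Wistar replicates 1 to 3 read -2.82, -2.94 and -3.05, and GK replicates 1 to 3 read -2.37, -2.69 and -2.96. GK replicates 1 and 2 were above all Wistar arrays, while GK replicate 3 was below Wistar replicates 1 and 2, the same order of arrays against the control range as for Med16. The GK mean was -2.68 ± 0.29 and the Wistar mean -2.93 ± 0.12 (SD, n = 3 each). The log2 difference of 0.26 had a 95% interval of -0.26 to 0.77 and a limma adjusted p of 0.685. With normexp, whose offset of 50 units shrinks differences at so dim a signal, it was 0.05. Without GK replicate 1 the reported difference became 0.11 and without GK replicate 3 it became 0.40.

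Eif4b, the initiation factor, had closely grouped GK values and scattered Wistar values. The 3 GK arrays read 1.51, 1.65 and 1.64, and the Wistar arrays read 0.85, 1.61 and 1.18. The GK arrays lay close together at the top of the range, and Wistar replicate 2 fell among them. Of the 9 pairings of a GK with a Wistar array, 8 had the higher level in GK. The GK mean was 1.60 ± 0.08 and the Wistar mean 1.22 ± 0.38 (SD, n = 3 each), and whether the spreads differ was not tested. The log2 difference of 0.38 had a 95% interval of -0.18 to 0.95 and a limma adjusted p of 0.567. Wistar replicate 1 held the lowest level, and without it the difference was 0.20. Without Wistar replicate 2 it was 0.58, and neither value passed.

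Cse1l, the export receptor, was the steadiest of the 6. Wistar replicates 1 to 3 read 3.06, 2.88 and 3.03, and GK replicates 1 to 3 read 3.00, 3.11 and 3.21. The 6 arrays spanned 0.33 log2 units in all, and GK replicate 1 lay inside the Wistar range. The GK mean was 3.11 ± 0.10 and the Wistar mean 2.99 ± 0.10 (SD, n = 3 each). The log2 difference of 0.12 had a 95% interval of -0.30 to 0.54, or 0.812-fold to 1.45-fold, and a limma adjusted p of 0.837. It was 0.07 without GK replicate 3 and also 0.07 without Wistar replicate 2, and 0.06 with quantile normalisation.

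The uniform direction of the 6 means was set against the rest of the array. Of all tested probes, 49.6% had a higher mean in GK cells, and their median log2 difference was -0.0040. The other catalogue probes leaned the same way as the 6 genes: 26 of 34 (76.5%) were higher in GK cells, with a median of 0.17, against a median of 0.20 for the 6. When each array was centred on the median of its catalogue probes, which include these 6, instead of its 75th percentile, every difference shifted alike by -0.21, that of the median tested probe included. On that scale Eif4b was at 0.18, Mex3c at 0.05 and Med16 at 0.02, while Pop7 was at -0.041, Cse1l at -0.088 and Magoh at -0.11. This common shift sets the signs on that scale, and all 6 stayed above the array-wide median on both. Groups did not overlap for 0 of the 6 genes, whereas 18.6% of all tested probes parted the groups in either direction and 9.98% with GK higher.

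**Figure D2:**
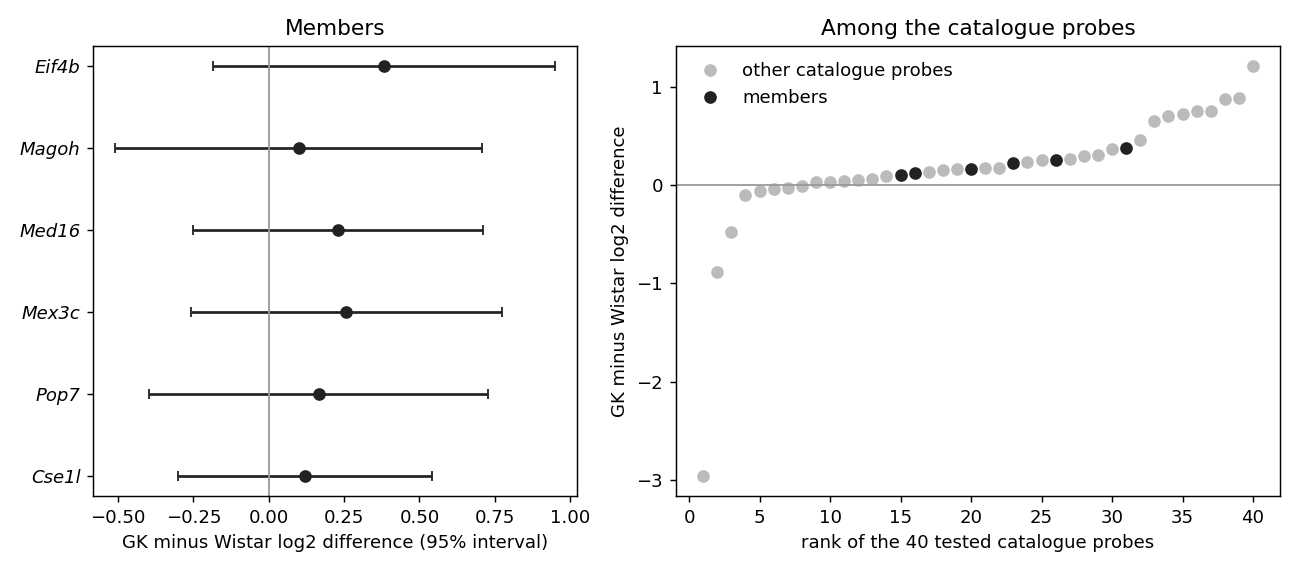
Left, GK minus Wistar log2 difference of each gene with its 95% interval from limma, all of which include 0. Right, the same difference for the 40 tested catalogue probes in rank order, with the 6 genes in black; they lie between 0.10 and 0.38, among the 26 other probes above 0.

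The 6 genes deviated in part together from array to array. Each array holds 1 sample, so array and sample cannot be told apart, and these deviations also contain the difference between the groups. On Wistar replicate 3 all 6 genes were below their own mean over the arrays, with a median log2 deviation of -0.27. On GK replicate 2 all 6 were above it, with a median deviation of 0.18. The 34 other tested catalogue probes had their lowest and highest median deviations on the same arrays, -0.16 and 0.30, whereas the medians over all tested probes there were 0.05 and -0.00031. On these arrays the catalogue probes thus shifted relative to the tested probes as a whole. Scaling each array to its own percentile largely fixes the median over all tested probes. That median therefore cannot show whether the tested probes shifted as well. Without Wistar replicate 3 the median difference of the 6 genes was 0.14, and without GK replicate 2 it was 0.18. GK replicate 1 split the genes, with Mex3c at 0.43 and Med16 at 0.33 above their means and Magoh, Pop7 and Cse1l slightly below theirs. It was also the array with the most probes well above background, 77.3%.

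**Figure D3:**
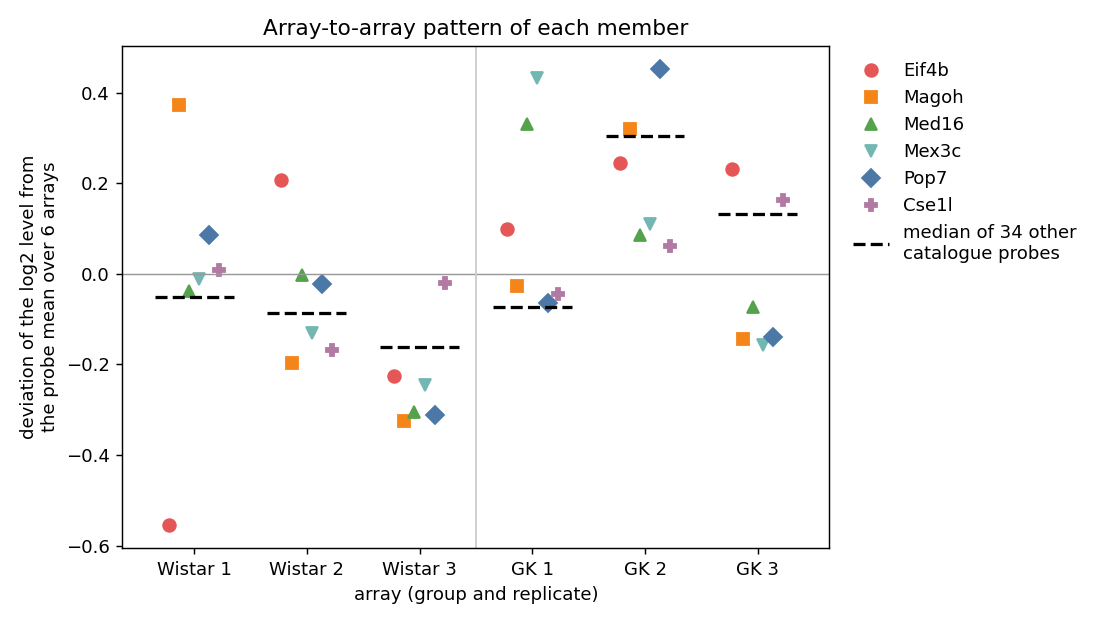
Deviation of each gene's log2 level from its own mean over the 6 arrays, by array, with the median deviation of 34 other tested catalogue probes as dashed bars. All 6 genes lie below 0 on Wistar replicate 3 and above 0 on GK replicate 2.

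Likeness between profiles was measured as the root mean square difference of log2 levels over the 6 arrays, after each gene's own mean was subtracted, against each of the 23 other tested probes with a gene name. The closest match among the 6 genes was between Med16 and Mex3c, each the other's nearest gene, at 0.08. Their median distance to the other genes was 0.36 for both. Magoh came nearest to Pdcd10 at 0.11, Pop7 to Ndfip2 at 0.10 and Cse1l to Ndfip1 at 0.11. Eif4b had no close match, with Med16 the nearest at 0.29 against a median of 0.38. Within the group, Magoh and Pop7 were 0.15 apart, and Eif4b and Magoh were the farthest pair at 0.45. These distances describe 6 arrays and share each array's scaling.

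Values within the scan time that holds both groups, the shared slide, were set beside the pooled ones, with GK replicate 1 alone against the 3 Wistar arrays and assumed to vary like them. The log2 difference there was 0.56 for Mex3c, 0.45 for Med16 and 0.29 for Eif4b. For Magoh it was 0.02, for Pop7 0.02 and for Cse1l 0.02. The dim genes Mex3c and Med16 thus differed more there than over all 6 arrays, and the other 4 less. Before scaling, Mex3c read 33.1 intensity units on GK replicate 1, against 30.7, 25.3 and 20.9 on Wistar replicates 1 to 3. Med16 read 21.3, against 20.7, 19.0 and 13.8. The 75th percentile was 172 units on GK replicate 1, against 216, 194 and 173 on those Wistar arrays. That percentile was lower on GK replicate 1 than on each of those Wistar arrays. The scaling thus raised the differences of all 6 genes there by the same amount, and its size was not worked out. With the slide as a random block the 6 differences lay between 0.08 for Magoh and 0.36 for Eif4b, with none passing in limma. The other scan time holds GK arrays only and gives no value of its own.

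**Figure D4:**
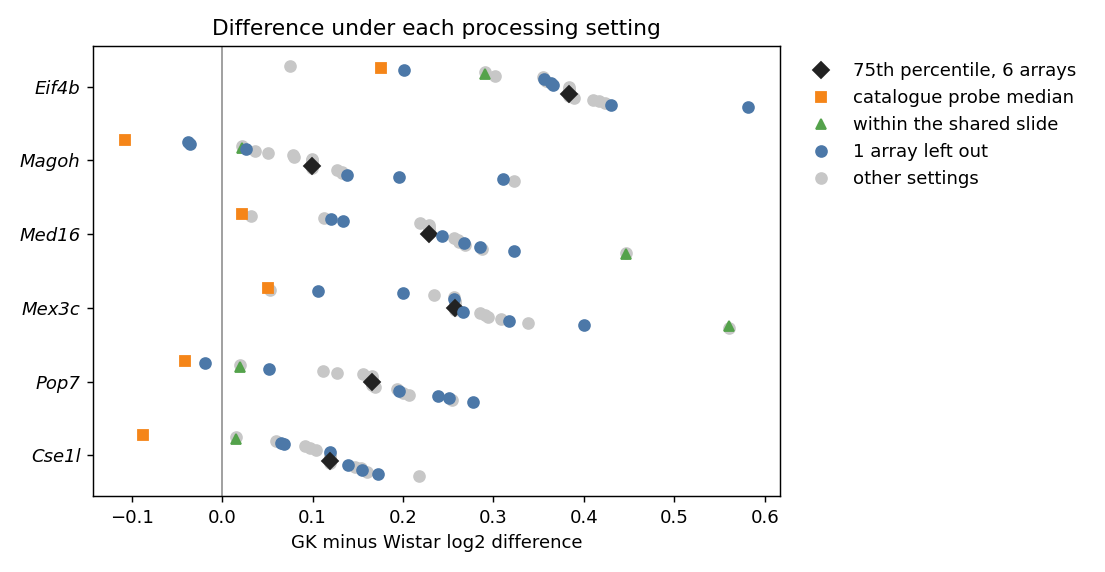
GK minus Wistar log2 difference of each gene under each processing setting that was run. Black diamonds are the values reported, orange squares centre arrays on the catalogue probes, green triangles use the shared slide, blue points leave out 1 array and grey points are other settings; Magoh, Pop7 and Cse1l cross 0.

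The level of an array is the mean of up to 10 spots, and the scatter of the spots gives the technical error of that mean on the array. Over the 6 genes and arrays the median standard error of such a mean was 0.03. The within-group SD across arrays had a median of 0.25, against 0.33 over the 34 other tested catalogue probes, also printed in 10 spots. Over all tested probes, which were not matched for the number of spots, it was 0.33 as well. The SD across arrays was 0.31 for Magoh, 0.28 for Eif4b and 0.27 for Pop7, and it was 0.10 for Cse1l. The dim genes had the larger spot errors, with a median standard error of 0.05 for Med16 and 0.04 for Mex3c, against SDs across arrays of 0.19 and 0.22. For each of the 6 genes the SD across arrays exceeded the median spot error of a mean, and the samples, arrays and labelling that lie between them were not separated. With its standard error in this fit, Cse1l would have needed a difference of 2.46-fold to pass the adjusted threshold, and Magoh one of 3.66-fold. These sizes hold for the standard error of each probe and the threshold reached in this fit, and a p above the threshold does not show that the levels were equal.

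The partners of these proteins could not be followed. The lists of 58 further genes for translation initiation, the exon junction complex, Mediator, RNA-binding ubiquitin ligases, RNase P and RNase MRP, and nuclear transport had 0 members with a named probe, so 0 were tested in either direction. No statement on these complexes beyond the 6 genes is made.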

How the data were processed

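RNA of 6 samples, labelled with Cy3 per the labels, was hybridised to 1 array each, and titles gave groups and replicate numbers. Each scanner file holds the linear intensity of every spot from Agilent Feature Extraction 11.0.1.1, background-subtracted and not normalised between arrays, per the file headers. The authors' deposited log2 table holds none of the 6 probes and served only for the array-wide count; how it was normalised was not stated in the sources at hand. Control and outlier-flagged spots were left out and the log2 signals of a probe's spots averaged. Each array's 75th percentile was subtracted. Probes well above background on at least 3 arrays and measured on at least 2 per group were tested. The test was limma 3.58.1 in R 4.3.3 (lmFit, eBayes, two-sided, Benjamini-Hochberg adjustment over 27920 probes), a procedure tested on simulated data. Those simulated data had independent noise and no slide or array effect, unlike these arrays. Genes were matched through unversioned accessions to RefSeq (GRCr8). The header's build is older, so no gene coordinates are given; promoter positions are those of the RefSeq table. All 6 members were named whatever their values, with the nearest named profile of each. The members and lists were chosen with earlier results of these data known.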

Additional observations from a re-analysis of the deposited data

How the results depend on the processing

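Over 22 alternatives for each of the 6 genes (132 values), 0 passed at an adjusted p under 0.05 in limma, and 6 changed sign. In 3 of these, arrays were centred on the catalogue probes, which shifts all probes alike by -0.21: Magoh was then at -0.11, Pop7 at -0.041 and Cse1l at -0.088. The other 3 came from leaving out an array. Not all of the 132 values could change sign. Other filters on dim probes and other variance options in limma leave each estimate as reported and alter only its p-value. The block on replicate number, described below, does the same. A fixed slide term returned the same differences as the shared slide alone, so these are not separate checks of direction. Leaving out each array gave Magoh -0.038 to 0.31, Pop7 -0.019 to 0.28, Eif4b 0.20 to 0.58, Med16 0.12 to 0.32, Mex3c 0.11 to 0.40 and Cse1l 0.07 to 0.17. Array weights, whose estimation did not converge, gave Eif4b 0.08, Magoh 0.32, Cse1l 0.22, Pop7 0.25, Med16 0.11 and Mex3c 0.23. Wistar replicate 2 had a weight of 11.1 and every other array 1.13 or less, so that array dominates the Wistar side of these values. Normexp gave Magoh 0.04, Med16 0.03 and Mex3c 0.05. Its offset of 50 units exceeds the processed signals of Med16 and Mex3c and by itself shrinks their differences. Quantile normalisation gave Magoh 0.05 and Cse1l 0.06. Each replicate number holds a GK and a Wistar array, so that number as a block must leave the 6 differences as they were. With it Eif4b stayed at 0.38 (adjusted p = 0.611 in limma), and no call changed. The numbers were not used to pair, since the labels do not say that a number marks a shared animal, litter or day. Same-numbered arrays deviated together at 0.0087, 0.10 and 0.42, and Wistar replicate 1 correlated best with GK replicate 2. The array-wide count of 100 probes (55 higher, 45 lower in GK) was 62 with normexp (26 and 36), 64 for probes well above background on all 6 arrays, 65 when the slide was a random block, 7 when it was a fixed one, 23 on the shared slide alone and 1025 with array weights. Centred on the catalogue probes it was 100 (41 and 59), and with the replicate block 97 (43 and 54). With 1 array left out it ranged from 31 to 664, with most calls without GK replicate 3 and the fewest without Wistar replicate 1 and without Wistar replicate 3. The cause was not tested. Not run was the authors' table for the 6 genes, whose probes it does not hold. The planned mean signal for normexp was replaced by the median signal. Signal over background limits Med16 and Mex3c most.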
